A study of Mus musculus with 4 samples.

Results

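The homeobox and paired box genes that lay out the regions of the brain were measured in newborn mice after prenatal exposure to titanium dioxide nanoparticles (TiO2-NP). They were taken by symbol, as the Dlx, Lhx, Pax, Otx, Emx, Irx, Isl, Msx and Gbx genes, Six2 and its relatives, the Nkx genes, Lmx1a and Lmx1b, and En1 and En2. Of 20651 genes that could be named through RefSeq accessions on the array, 63 belonged to these families, carried by 80 probes. The rule itself uses no measured value, though it was set with earlier results of these arrays known. Where a gene had several probes, the brightest over the 4 arrays stood for it and the others served as a check.

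Pregnant C57BL/6J mice received either 100 μg of TiO2-NP in 25 μL (TiO2-H) or the same volume of a particle-free vehicle made from the suspension (Sham), into the trachea. Where signals of all 4 arrays are listed without names below, they run from the male to the female Sham array and then from the male to the female TiO2-H array. The protocol places the administration on gestational day 10.5, whereas the sample descriptions give day 14. Whole brains were collected on postnatal day 1, and RNA of 2 offspring per dam was pooled, from 5 dams in each Sham pool and 6 in each TiO2-H pool. The male and female pool of an exposure shared their dams, so that they are not independent sets of litters. Each of the 4 groups, named by exposure and by the labelled sex of the pups, was hybridized to 1 one-color array, so that no value within a sex has a replicate. The study compared TiO2-H with Sham within each sex to find genes altered by the exposure. With whole brain RNA, fewer cells of a type and less RNA per cell cannot be told apart.

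Homeodomain and paired domain proteins are transcription factors. In the embryo they are switched on in bands and patches by signals such as Shh, Fgf8, Bmp and Wnt proteins, and each combination fixes the identity of a region, such as cortex, striatum, thalamus or midbrain. In the newborn brain a number of them persist in neurons of the region they specified. Others act in progenitors or mainly outside the brain, so that their mRNA is only a partial guide to regions and neuron classes. LIM homeodomain factors (Lhx, Isl and Lmx) work in complexes with the Ldb adaptors, and Six2 and its relatives with Eya and Dach partners.

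Signal was given as the processed intensity of a spot, scaled so that the 75th percentile of all non-control spots was 835 on every array. A gene counted as well above background where the scanner software placed most spots of its probe there. This held for 56.2% to 61.2% of spots, and the lowest such scaled signal ran from 22.4 to 33.3 between arrays. No spot was saturated. All 4 arrays lay on a single slide, with the Sham arrays in one row and the TiO2-H arrays in the other, so that exposure and slide row cannot be told apart. Sex-linked transcripts went against the sex labels of the TiO2-H arrays. Eif2s3y, a Y-linked gene, had scaled signals of 3628 on Sham male, 441 on Sham female, 6.17 on TiO2-H male and 4168 on TiO2-H female. Xist, transcribed from the inactive X chromosome, had 18.5, 289, 334 and 5.14 in the same order, and Ddx3y, also Y-linked, had 1461, 150, 6.92 and 1711. The Sham female array therefore carried some Y-linked signal besides Xist, and groups are named below only by their labels.

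The tissue carried neural genes on every array. All 10 neuronal markers and all 9 markers of neural progenitors and glia were well above background on all 4 arrays. Markers of neighbouring tissues were mixed. All 6 choroid plexus markers were present, whereas 3 of 6 skeletal muscle markers, among them Myod1, and 4 of 8 pituitary markers, among them Prl and Pou1f1, were well above background on no array. Gh, the growth hormone gene of the pituitary, was well above background on the TiO2-H male array alone, at a scaled signal of 290. The summed signal of 6 retina and lens markers was 269 on Sham male, 508 on Sham female, 537 on TiO2-H male and 608 on TiO2-H female. Of the 3 well above background on all 4 arrays, 1 was higher on both TiO2-H arrays and 0 lower, beside 30.2% and 26.6% of all genes. The summed signal of red blood cell markers lay between 86572 and 88989 on the Sham arrays and between 73306 and 73704 on the TiO2-H arrays. That of bone and mesenchyme markers lay between 7744 and 7858 and between 8520 and 8575. Their part in the differences below was not tested.

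Promoters are shown for 4 of the 6 members whose difference between exposures had an unadjusted p under 0.05, namely the diencephalic factors Gbx2, Lhx1 and Lhx9 and the midbrain and hindbrain factor Lmx1b. Each is the run of 250 bases before the start site, 5′ to 3′ in the direction of the gene, from RefSeq on GRCm38.p6. Capitals mark TAAT on either strand, the core that many homeodomain proteins bind, so that on the other strand it reads ATTA. The windows are chr1:89931177-89931426 for Gbx2, chr11:84525535-84525784 for Lhx1, chr1:138842445-138842694 for Lhx9 and chr2:33641099-33641348 for Lmx1b, all on the minus strand.
Gbx2: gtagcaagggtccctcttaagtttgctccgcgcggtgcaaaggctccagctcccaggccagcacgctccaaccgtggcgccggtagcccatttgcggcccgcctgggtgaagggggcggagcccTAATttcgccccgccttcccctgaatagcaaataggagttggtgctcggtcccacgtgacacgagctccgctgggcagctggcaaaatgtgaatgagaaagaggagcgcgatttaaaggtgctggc
Lhx1: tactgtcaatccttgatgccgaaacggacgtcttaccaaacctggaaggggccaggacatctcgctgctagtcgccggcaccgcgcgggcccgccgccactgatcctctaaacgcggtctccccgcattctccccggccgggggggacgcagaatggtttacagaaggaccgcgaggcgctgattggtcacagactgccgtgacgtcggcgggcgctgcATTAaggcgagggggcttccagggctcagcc
Lhx9: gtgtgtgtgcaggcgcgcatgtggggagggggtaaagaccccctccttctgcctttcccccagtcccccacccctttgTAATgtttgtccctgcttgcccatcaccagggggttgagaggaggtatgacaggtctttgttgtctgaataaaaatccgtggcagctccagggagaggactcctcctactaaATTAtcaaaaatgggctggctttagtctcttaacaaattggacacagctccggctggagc
Lmx1b: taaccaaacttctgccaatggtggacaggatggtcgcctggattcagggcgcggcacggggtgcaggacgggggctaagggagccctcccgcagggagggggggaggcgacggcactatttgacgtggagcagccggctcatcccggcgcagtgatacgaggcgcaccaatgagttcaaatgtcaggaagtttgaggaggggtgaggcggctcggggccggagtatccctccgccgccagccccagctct
Gbx2 and Lhx1 held 1 core each, Lhx9 held 2, and Lmx1b had none in this window. The windows of Gbx2, Lhx1 and Lmx1b were rich in CpG, with 18, 26 and 19 CpG sites, and that of Lhx9 held 4. Of the 63 genes, 46 had an entry, in 57 windows. A core was found in 49.1% of these windows, against 54.9% of all 32851 windows and 41.1% of the windows of genes well above background on all 4 arrays. A median of 16 CpG sites fell in a member's window, against 14 for genes well above background on all 4 arrays. A match is a description of letters and not a binding site, and methylation of these windows was not analysed here.

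Of the 63 genes, 50 were well above background on all 4 arrays, 4 on some, and 9 on none. Among the 9 were En1, Pax5, Nkx2-9, Pax1, Pax4, Pax9, Nkx2-5 and Nkx3-2. Several of these are known from other organs, such as Pax1 and Pax9 of the sclerotome and pharynx, Pax4 of the pancreas and Nkx2-5 of the heart. En1 and Pax5, which mark the midbrain and isthmus of the embryo, also stayed at background, with En1 at a scaled signal of at most 9.51 over its 10 spots. The region groups of the forebrain were measured in full, with 5 of 5 pallial, 9 of 9 subpallial and 10 of 10 diencephalic genes well above background on all 4 arrays. For midbrain and isthmus this held for 7 of 10 genes, for hindbrain and spinal motor neurons for 6 of 8, and for genes used mainly outside the brain for 13 of 21. The families cannot be ranked by signal, since probes differ in their response.

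No member passed the test between exposures. With limma over all 16150 genes that were well above background on at least 1 array, 0% had an adjusted p under 0.05, members included, and the lowest adjusted p was 0.257. At an unadjusted p under 0.05, 17.4% of all genes and 6 of the 54 members tested (11.1%) differed. These were Gbx2, Lhx1, Msx2 and Nkx2-6, lower in TiO2-H, and Lhx9 and Lmx1b, higher. The p-values measure only the spread between pools of an exposure. These pools share dams, so that differences between sets of dams do not enter that spread. An exact two-sided permutation of the 4 arrays could not give a p below 0.33. The median log2 difference of the members, TiO2-H minus Sham, was -0.043, beside 0.0044 over all genes tested. It turned to 0.017 without the TiO2-H female array and to 0.071 without scaling, which raised the median of all genes to 0.12.

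Among the 50 genes measured on all 4 arrays, differences were small. In 29 of them the mean difference was under 0.1 in size on the log2 scale, and in 7 it was 0.2 or more. The median size of the mean difference was 0.072 over these members, beside 0.080 over all genes. Between single arrays, the median size of the members' log2 ratio was 0.095 for TiO2-H male over Sham male and 0.092 for the pair labelled female. It was 0.096 between the Sham arrays and 0.067 between the TiO2-H arrays, so that single ratios between exposures were about as large as those between the Sham pools. Over all genes the same medians were 0.088, 0.091, 0.059 and 0.055. Both TiO2-H arrays lay above both Sham arrays for 9 members (18%), beside 30.2% of all genes, and below both for 17 (34%), beside 26.6% of all genes. For the other 24 members the arrays overlapped. These counts rest on the scaling: without it, 26 members lay above and 3 below, beside 65.7% and 4.38% of all genes.

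**Figure D1:**
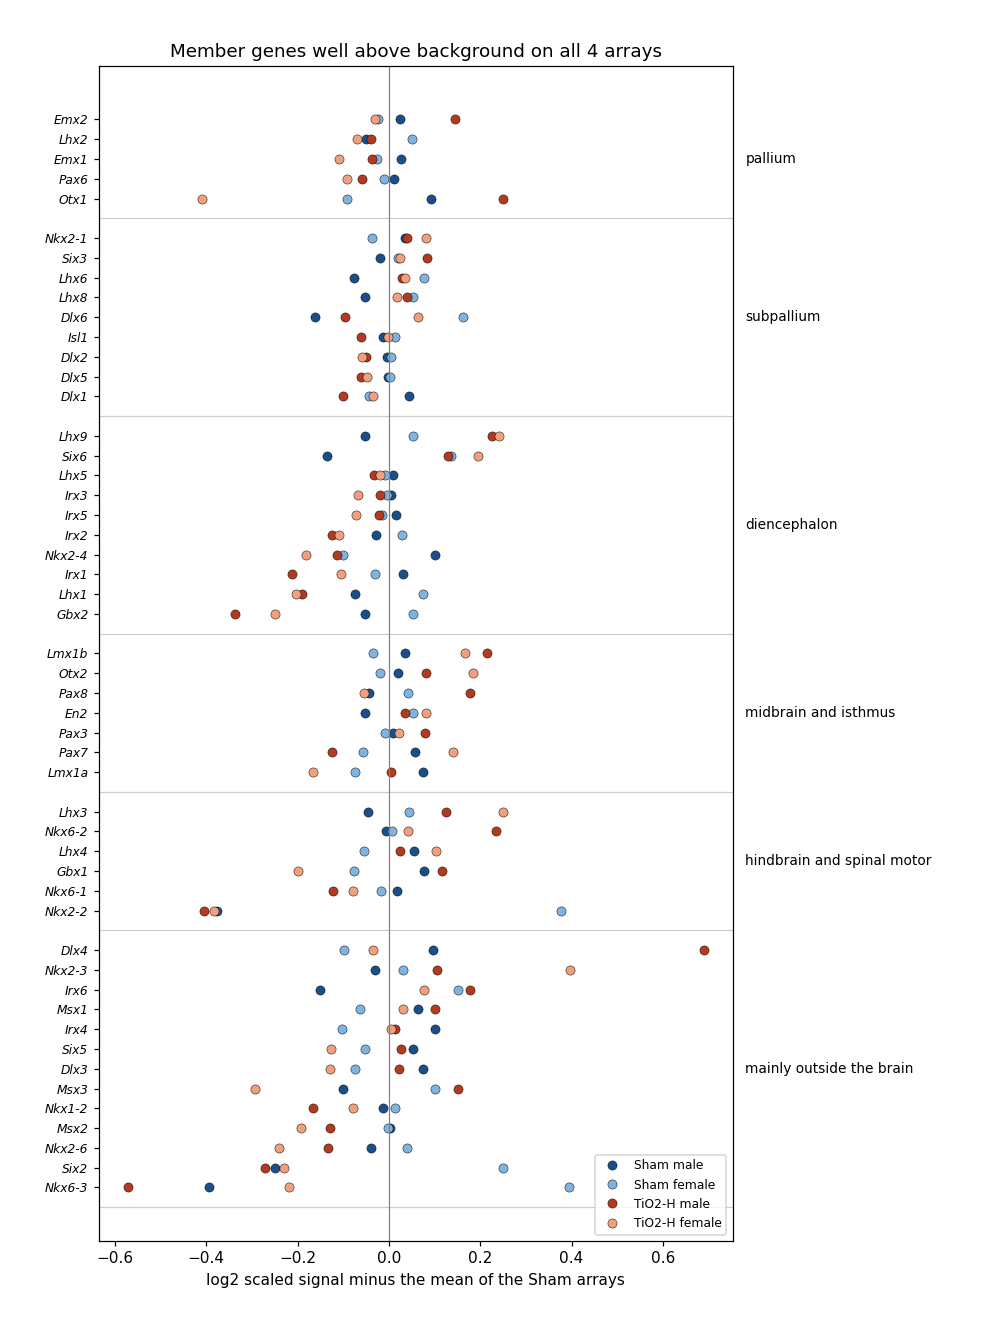
Log2 scaled signal of the 50 members well above background on all 4 arrays, each minus the mean of its Sham arrays (x axis, log2 units), grouped by region and ordered by mean difference; each point is 1 array. Most points lie within 0.2 of the Sham mean, and the TiO2-H points of Gbx2 and Lhx1 lie to the left and those of Lhx9 and Lmx1b to the right. For Dlx4 the TiO2-H male point lies far to the right. For Nkx2-2, Nkx6-3 and Six2 the high Sham female array raises the Sham mean. Its point therefore lies to the right and the points of the other arrays to the left.

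Among the 10 genes listed under the diencephalon, both TiO2-H arrays were below both Sham arrays for 8, beside 26.6% of all genes. These were Gbx2, Lhx1, Lhx5, Nkx2-4, Irx1, Irx2, Irx3 and Irx5. For Lhx9 both TiO2-H arrays were above, beside 30.2% of all genes. Several of the log2 differences were small, with -0.027 for Lhx5, -0.044 for Irx3 and -0.047 for Irx5. Six6, an eye field and hypothalamic gene, overlapped. The group's median log2 difference was -0.082, and no gene had an adjusted p under 0.05 by limma. Without scaling the split was 2 lower and 5 higher, beside 4.38% and 65.7% of all genes. With normexp background correction it was 6 lower and 2 higher, beside 27.5% and 29.2%.

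Gbx2, which is required in the developing thalamus, had scaled signals of 678 on Sham male, 729 on Sham female, 557 on TiO2-H male and 591 on TiO2-H female. Both TiO2-H arrays were below both Sham arrays, with a ratio of 0.821 for the pair labelled male and 0.811 for the pair labelled female. The mean log2 difference was -0.29 (SE 0.062, adjusted p = 0.257 by limma), and it stayed between -0.35 and -0.24 when each array was left out in turn. Lhx1, a LIM factor of the zona limitans and of hypothalamic neurons, had 378, 419, 349 and 346 in the same order, a difference of -0.20 (SE 0.066, adjusted p = 0.286 by limma). The gap was wider on the arrays labelled female, where the Sham pool was the highest of all. Without the Sham female array the difference was -0.12.

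Lhx9, expressed in thalamic neurons and in the pretectum, went the other way. Its scaled signals were 2019 on Sham male, 2170 on Sham female, 2448 on TiO2-H male and 2475 on TiO2-H female, a mean log2 difference of 0.23 (SE 0.052, adjusted p = 0.257 by limma). All 3 probes of Lhx9 placed both TiO2-H arrays above both Sham arrays. Their mean differences were 0.23, 0.22 and 0.16.

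The Irx genes, Iroquois factors that pattern the diencephalon and the neural tube behind it, lay slightly lower in TiO2-H. Irx1 had scaled signals of 3408, 3265, 2879 and 3104, a log2 difference of -0.16. Irx2 had 857, 891, 802 and 810, a difference of -0.12. A second, dimmer probe of Irx2 gave 117, 114, 90.0 and 88.7, a difference of -0.37. Both probes had the TiO2-H arrays lower, but by unequal amounts, and without scaling the difference of the brighter one was -0.0021. Irx3 and Irx5 differed by -0.044 and -0.047. The Iroquois genes placed outside the brain in the lists, Irx4 and Irx6, overlapped between exposures.

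Among midbrain and isthmus genes, both TiO2-H arrays were above both Sham arrays for 3 of the 7 genes measured on all 4 arrays, Lmx1b, Otx2 and Pax3, and below for 0, beside 30.2% of all genes above and 26.6% below. The group's median log2 difference over these 7 was 0.058, and no gene passed the test by limma. With normexp correction 1 of the 7 was above, beside 29.2% of all genes.

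Lmx1b, needed for midbrain dopamine and hindbrain serotonin neurons, had scaled signals of 169 on Sham male, 161 on Sham female, 192 on TiO2-H male and 185 on TiO2-H female. The mean log2 difference was 0.19 (SE 0.047, adjusted p = 0.257 by limma). Its second probe gave 126, 107, 136 and 123, a difference of 0.16, with an overlap between exposures. With normexp correction on the median signals the difference of Lmx1b was -0.015, so that its direction depends on the processing. The cause was not tested. Its relative Lmx1a, of the same dopamine lineage, had 682, 616, 650 and 577, which overlapped.

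Otx2, which sets the border between midbrain and hindbrain and is also strong in choroid plexus, had scaled signals of 3430, 3340, 3579 and 3846. The TiO2-H arrays were higher by 0.13 on the log2 scale (SE 0.054). The summed signal of the choroid plexus markers lay between 72792 and 74803 on the Sham arrays and between 70869 and 71912 on the TiO2-H arrays. Most of this sum came from Ttr, with 68568, 66724, 64621 and 65592. Of the 6 markers, 3 were higher on both TiO2-H arrays and 1, Ttr, was lower, beside 30.2% and 26.6% of all genes. Their part in the Otx2 signal was not tested. En2, an engrailed factor of midbrain and cerebellum whose probe was spotted 10 times, had 1297, 1395, 1378 and 1422, and its arrays overlapped. Its mean log2 difference was 0.058. The SD over its spots, a spread of single spots and not of their mean, ran from 0.049 to 0.11 on the log2 scale.

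Pax3, a dorsal neural tube factor, was measured by a brighter probe with 1 spot and a dimmer one with 10. The brighter probe gave scaled signals of 501, 495, 526 and 506, a log2 difference of 0.051. The dimmer one gave 115, 115, 133 and 130, a difference of 0.20, with an SD over spots of 0.11 to 0.15 on each array. Both had the TiO2-H arrays higher. Pax7, its close relative, had 188, 174, 166 and 199 and overlapped, as did Pax8.

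**Figure D2:**
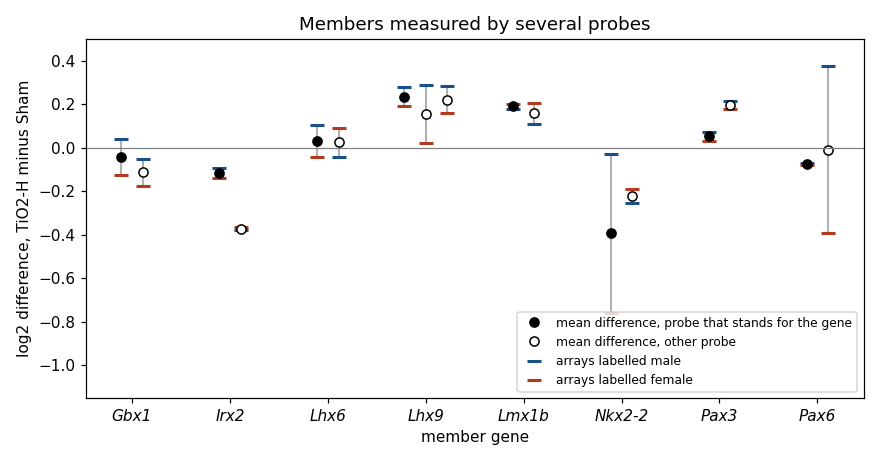
Log2 difference TiO2-H minus Sham (y axis) for the 8 members with several probes well above background on all 4 arrays; filled points are the mean difference of the probe that stands for the gene, open points that of another probe, and dashes the ratios on the arrays labelled male and female. All probes of a gene lie on the same side of 0 in their means, but by unequal amounts, as for Irx2 (-0.12 and -0.37) and Pax3 (0.051 and 0.20).

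Forebrain genes outside the diencephalon differed little between exposures. Of the 5 pallial genes, Emx1 and Pax6 had both TiO2-H arrays below both Sham arrays, beside 26.6% of all genes, and the others overlapped, with a median difference of -0.073. Emx1, a factor of the dorsal cortex, had scaled signals of 926, 891, 885 and 842. Pax6, which drives cortical progenitors, had 454, 447, 433 and 423. Both differences were under 0.08 in size, and without scaling 2 pallial genes lay above and 0 below, beside 65.7% and 4.38% of all genes. A second, dimmer probe of Pax6 gave 41.4, 44.2, 53.6 and 33.7, a difference of -0.0089, with an overlap. With the mean of a gene's probes 0 pallial genes lay above and 1 below, beside 29.7% and 26.9% of all genes. Lhx2, a selector of cortical identity, had 9597, 10297, 9673 and 9465, with an overlap.

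In the subpallium, the source of striatal neurons and of cortical interneurons, the median difference was -0.016 and all 9 genes stayed within 0.07 of 0. Dlx2, an interneuron and striatal determinant, had scaled signals of 4149, 4174, 4022 and 3994. Nkx2-1, the factor of the medial ganglionic eminence and hypothalamus, had 165, 157, 165 and 170 over 10 spots. Its mean log2 difference was 0.059. The SD over its spots was 0.11 to 0.16 on the log2 scale, a spread of single spots and not of their mean. Lhx6, which acts downstream of Nkx2-1 in migrating interneurons, and Lhx8, of cholinergic neurons, both overlapped, as did Isl1 of striatal projection neurons. Dlx2 and Dlx5 lay slightly lower and Nkx2-1 and Six3 slightly higher on both TiO2-H arrays, whereas without scaling 7 of the 9 lay higher and 0 lower, beside 65.7% and 4.38% of all genes.

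**Figure D3:**
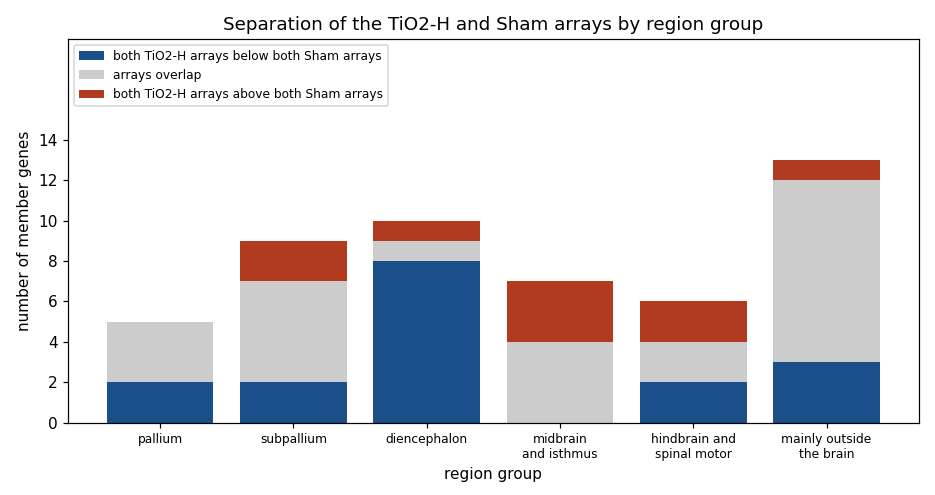
Number of member genes well above background on all 4 arrays (y axis) in each region group (x axis), split by whether both TiO2-H arrays were below both Sham arrays (blue), above them (red) or overlapped (grey). Of the 10 diencephalic genes 8 were below and 1 above, and of the 7 midbrain and isthmus genes 0 were below and 3 above; over all genes 26.6% were below and 30.2% above.

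Few members passed the study's thresholds of 1.5-fold and 0.67-fold within a labelled sex, and none passed in both. On the arrays labelled male, Dlx4 and Six4 were at or above 1.5-fold, 2 of the 53 members compared (3.77%), beside 2.06% of all genes. Isl2 was at or below 0.67-fold, 1 of 53 (1.89%), beside 1.82% of all genes. On the arrays labelled female 0 members were at or above 1.5-fold, beside 1.59% of all genes, and Nkx2-2 and Nkx6-3 were at or below 0.67-fold (3.77%), beside 1.97% of all genes. Between the Sham arrays, which shared their treatment, Nkx2-2 and Nkx6-3 were at or above 1.5-fold in Sham female over Sham male and 2 members, Isl2 among them, at or below 0.67-fold, 2 of 52 each (3.85%), beside 1.84% and 1.75% of all genes. The comparisons share arrays, so that a value far out on a Sham array enters both.

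Isl2, a LIM factor of motor neurons and sensory ganglia, stood out on 1 array. Its scaled signals were 729 on Sham male, 26.3 on Sham female, 32.4 on TiO2-H male and 27.7 on TiO2-H female, and only the first was well above background. It was thus at least 22.5-fold lower on TiO2-H male than on Sham male, and at least 21.9-fold lower on Sham female than on Sham male, with each dim array at the higher of its signal and the array's lowest signal well above background. With the array of Sham male at 729 and every other array at background, the mean difference of -2.38 had an SE of 1.70 (adjusted p = 0.494 by limma). The summed signal of 8 markers of cranial sensory ganglia, of which 4 were well above background on no array, was 2155 on Sham male and 2066 to 2623 on the others, and its part in the Isl2 signal was not tested. Isl1, its close relative, had 630, 642, 609 and 635.

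Nkx2-2, a ventral neural tube factor of serotonin neurons and the oligodendrocyte lineage, stood out on the Sham female array. Its scaled signals were 480 on Sham male, 808 on Sham female, 470 on TiO2-H male and 478 on TiO2-H female. The ratio of 0.591 on the arrays labelled female therefore stood beside 1.69 for Sham female over Sham male. Its second probe, of another transcript, gave 341, 338, 286 and 296, with no excess on Sham female and both TiO2-H arrays lower by 0.22 on the log2 scale. Without the Sham female array the difference of the brighter probe shrank from -0.39 to -0.017. Olig2, a marker of the oligodendrocyte lineage, had 1138, 1133, 1155 and 1124, which overlapped. Pdgfra, another marker of that lineage, had 1780, 1871, 1920 and 2027, higher on both TiO2-H arrays, beside 30.2% of all genes.

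Nkx6-3 and Six2 showed the same shape. Nkx6-3, known from the stomach and from hindbrain neurons, had 58.3, 101, 51.5 and 65.8. Six2, a kidney progenitor factor, had 233, 330, 230 and 236, with ratios inside the thresholds. In both, Sham female was the highest of the 4 arrays, and the other probe of each was well above background on none. Prdm12, a marker of sensory ganglia, had 365, 795, 300 and 334 and was also highest on Sham female.

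Dlx4 and Six4 stood out on TiO2-H male. Dlx4, a Dlx gene of placenta and branchial arches, had scaled signals of 82.2, 71.8, 124 and 75.04, with 1.51-fold for the pair labelled male and 1.05-fold for the pair labelled female. Six4, of muscle and sensory placodes, had 23.1 and 21.6 on the Sham arrays, which were not well above background, 56.0 on TiO2-H male and 28.7 on TiO2-H female. It was at least 1.78-fold higher on TiO2-H male than on Sham male. Pax2, of isthmus and kidney, was well above background on TiO2-H female alone, at 28.0, and near that signal on the other arrays.

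**Figure D4:**
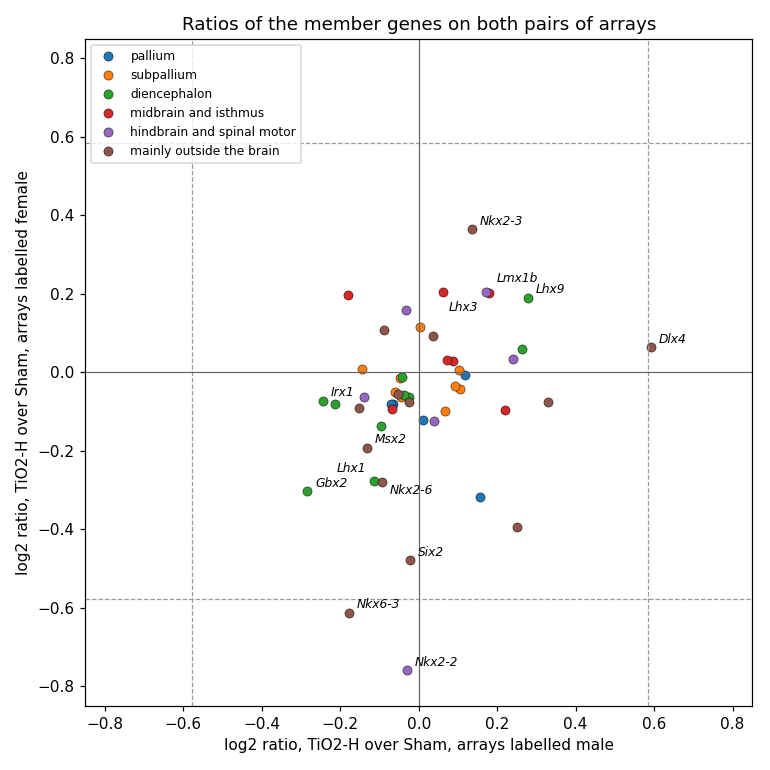
Log2 ratio TiO2-H over Sham on the arrays labelled male (x axis) and labelled female (y axis) for the 50 members well above background on all 4 arrays, colored by region group, with dashed lines at 1.5-fold and 0.67-fold. No gene lies past a threshold on both axes, and Gbx2 (-0.28 and -0.30) and Lhx9 (0.28 and 0.19) are among those far from 0 on both. Above 0 lie 23 genes on the x axis and 17 on the y axis, beside 7300 and 7877 of all 14633 genes well above background on all 4 arrays. Below 0 lie 27 and 33, beside 7333 and 6756. These sides rest on the scaling.

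The remaining members with the largest differences without overlap were Lhx3, of the hindbrain and spinal motor group, and Nkx2-3 and Nkx2-6, listed mainly outside the brain. Msx2, also listed there, is given beside them for its unadjusted p under 0.05 by limma. Lhx3, a LIM factor of motor neurons, spinal interneurons and the pituitary, had scaled signals of 178 on Sham male, 190 on Sham female, 200.5 on TiO2-H male and 218 on TiO2-H female. It was higher in TiO2-H by 0.19 on the log2 scale (SE 0.067, adjusted p = 0.296 by limma). The summed signal of pituitary markers ran 812, 1016, 1445 and 745 in the same order, and its part was not tested. Nkx2-3, a gut and spleen factor, had 62.1, 64.8, 68.2 and 83.5, a difference of 0.25 that was 0.10 without the TiO2-H female array and turned to -0.090 with normexp correction. Nkx2-6, of pharynx and heart, had 52.0, 54.9, 48.7 and 45.2, a difference of -0.19 (SE 0.061, adjusted p = 0.280 by limma). Msx2, a skull and neural crest factor that responds to Bmp signals, had 464, 463, 424 and 406, a difference of -0.16 (SE 0.042, adjusted p = 0.258 by limma).

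In the hindbrain and spinal motor group as a whole, 2 of 6 genes lay higher (Lhx3 and Nkx6-2) and 2 lower (Nkx2-2 and Nkx6-1) on both TiO2-H arrays, beside 30.2% and 26.6% of all genes. The split was 3 and 0 without scaling, where 65.7% of all genes were higher, and 1 and 3 with normexp correction. Nkx6-1, a motor neuron progenitor factor, had 453, 442, 411 and 424. The summed signal of 11 Hox genes that mark hindbrain and cervical cord, a check on the extent of dissection, ran from 6382 to 6398 on the Sham arrays and from 6170 to 6410 on the TiO2-H arrays.

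Of the noncoding RNAs transcribed beside these genes, Dlx1as, Dlx6os1 and Six3os1 had higher signals on both TiO2-H arrays than on both Sham arrays. Of 10 listed, 6 were on the array and 5 were well above background on all 4 arrays. The separation was thus 3 of the 5 above and 0 below, beside 30.2% and 26.6% of all genes. It was the same with quantile normalization. With normexp it was 4 above and 0 below, beside 29.2% and 27.5% of all genes, and without scaling also 4 and 0, but there 65.7% of all genes were above. The median log2 difference was 0.24, beside 0.0044 over all genes tested, and 0 of 5 had an adjusted p under 0.05 by limma while 3 had an unadjusted p under it, beside 17.4% of all genes.

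Dlx6os1, also known as Evf2, arises from the enhancers between Dlx5 and Dlx6 and is known to act on both genes in interneurons. Its scaled signals were 565 on Sham male, 520.4 on Sham female, 685 on TiO2-H male and 697 on TiO2-H female, a log2 difference of 0.35 (SE 0.057, adjusted p = 0.257 by limma). Dlx6 itself had 147, 184, 154 and 172, a difference of -0.016, and Dlx5 had 537, 539, 515 and 520.0, a difference of -0.056. Dlx1as, antisense to Dlx1, had 57.7, 63.4, 81.2 and 76.5, a difference of 0.38 (SE 0.070, adjusted p = 0.257 by limma), whereas Dlx1 had 1990, 1874, 1800 and 1884, a difference of -0.068. Six3os1, which is transcribed next to the forebrain and eye gene Six3, had 355, 366, 413 and 436, a difference of 0.24 (SE 0.047, adjusted p = 0.257 by limma), and Six3 had 991, 1017, 1065 and 1022, a difference of 0.055. Differences between an RNA and its neighbour were not tested, and the list was chosen with earlier results of these arrays known. Emx2os had 52.5, 53.8, 53.4 and 60.7, and Pax6os1 had 85.4, 70.6, 62.9 and 78.2, and both overlapped.

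**Figure D5:**
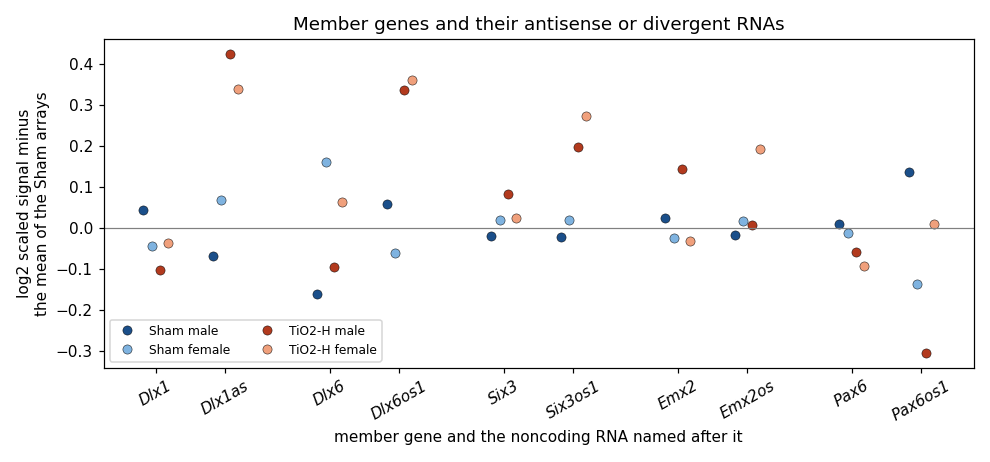
Log2 scaled signal minus the mean of the Sham arrays (y axis) for member genes and the noncoding RNAs named after them (x axis); each point is 1 array. The TiO2-H points of Dlx1as, Dlx6os1 and Six3os1 lie above both Sham points, by 0.38, 0.35 and 0.24 on average, while those of Dlx1, Dlx6 and Six3 differ from Sham by -0.068, -0.016 and 0.055.

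The cofactors of these proteins were all measured. Among the 15 LIM and TALE cofactors, both TiO2-H arrays were above both Sham arrays for 5 and below for 5, near the 30.2% and 26.6% of all genes, with a median difference of -0.023. None passed the test by limma at an adjusted p under 0.05, and 2 had an unadjusted p under it, beside 17.4% of all genes. Those 2 are the adaptors that LIM factors bind, and they lay on opposite sides. Ldb1 had scaled signals of 4922, 4920.4, 4220.0 and 4168, a log2 difference of -0.23 (SE 0.034, adjusted p = 0.257 by limma). Ldb2 had 4466, 4350.2, 4932 and 5038, a difference of 0.18 (SE 0.038, adjusted p = 0.257 by limma). The signs of both held under every scaling tried. Among 12 Eya, Dach and Groucho-type (Tle) partners of Six2 and its relatives, 3 were higher and 6 lower on both TiO2-H arrays, beside 30.2% and 26.6% of all genes. By limma 0 had an adjusted p under 0.05, and 2, Eya1 at -0.16 and Dach1 at 0.21, had an unadjusted one, beside 17.4% of all genes. Without scaling, 6 of the 12 were higher and 0 lower, beside 65.7% and 4.38% of all genes.

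Of 17 patterning signals, 14 were tested and 0 had an adjusted p under 0.05 by limma, while 4 had an unadjusted p under it, beside 17.4% of all genes. Gli1, a target of Shh signalling, had scaled signals of 990.4, 1095, 837 and 869, a log2 difference of -0.29, and Gli3, which represses that pathway, had 651, 690, 761 and 758, a difference of 0.18. Bmp6 had 553, 560, 447 and 452, a difference of -0.31, and Fgf18 had 1604, 1507, 1765 and 1727, a difference of 0.17. These 4 were taken by their unadjusted p, and in each the groups did not overlap. Of the 13 signals well above background on all 4 arrays, 2 were higher and 5 lower on both TiO2-H arrays, beside 30.2% and 26.6% of all genes. Without scaling 6 were higher and 2 lower, beside 65.7% and 4.38% of all genes. Ptch1, another Shh target, had 242, 223, 215 and 225 and overlapped, and Shh itself was well above background on no array.

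Among 32 other regional homeobox genes, 23 were well above background on all 4 arrays, of which 6 were higher and 7 lower on both TiO2-H arrays, near the 30.2% and 26.6% of all genes, with a median difference of 0.014. Barhl1, of the diencephalon and cerebellar granule lineage, had 2848, 2868, 2466 and 2448, a difference of -0.22 (SE 0.034, adjusted p = 0.257 by limma). None of the 25 tested had an adjusted p under 0.05 by limma, and 3 had an unadjusted p under it, beside 17.4% of all genes.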

How the data were processed

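Brain mRNA of 4 pools was measured on one-color arrays of 62976 spots, of which 59305 were not controls, with 1 array per group. The authors deposited scanner output made with Agilent Feature Extraction 10.10.1.1, as intensity after background subtraction and removal of spatial trends, and a table of intensity values equal to it for all 59305 spots. Since the files hold no mean signal, the normexp correction (offset 50) used median signals. Spots marked as outliers were left out, spots of a probe averaged, and log2 values scaled to each array's 75th percentile. On an array where a probe was not well above background, its value was raised to the array's lowest signal of that kind if it fell short of it, which makes a ratio a bound. Genes were named through RefSeq (GRCm38.p6), which held 94.3% of 22765 RefSeq accessions; the array annotation is of an older build. The number of arrays limits the precision. limma 3.58.1 in R 4.3.3 tested 2 arrays against 2 with Benjamini-Hochberg adjustment over all genes, and the fit was tested on simulated data. Other steps used Python 3.11.15, numpy 2.4.6, pandas 2.3.3 and matplotlib 3.10.9. Members past 1.5-fold or 0.67-fold, the 8 with the largest differences without overlap, and examples of each region are given with all values. The members, lists and rule were chosen with earlier results of these data known. Alternatives were no scaling, quantile normalization, normexp, the deposited table, other filters, the mean of probes, every probe, outlier spots kept, 2-fold thresholds, crossed sex labels, a sex term and each array left out. CpG island arrays were not used here. Single values of some genes are not reported here.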

Additional observations from a re-analysis of the deposited data

How the results depend on the processing

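No paired analysis was possible by replicate number because each group has 1 array and the labels number no replicates across groups. With labelled sex as a term, exposures are compared within a label. Sex-linked transcripts went against the labels of the TiO2-H arrays, so that this is not a comparison within a sex. The lowest adjusted p by limma was then 0.39, and 4 members had an unadjusted p under 0.05. With sex crossed within TiO2-H these values were 0.41 and 3. Under every alternative of limma the count of genes and of members with an adjusted p under 0.05 was 0, including each array left out, where the lowest adjusted p over all genes ran from 0.068 to 0.26; unadjusted p under 0.05 was reached by 1648 to 5089 genes over all alternatives. The median log2 difference of the members ran from -0.057 to 0.017 with each array left out. Of the counts past 1.5-fold or 0.67-fold, the 3 on the arrays labelled male became 1 with normexp, with both arrays well above background, with 2-fold thresholds and with arrays paired across the sex labels, and 5 with no filter and no floor. The 2 on the arrays labelled female became 1 with normexp, 0 with 2-fold thresholds, 4 with no filter and no floor, and 4 with arrays paired across the sex labels. The 4 between the Sham arrays became 2 with normexp, 2 with both arrays well above background and 1 with 2-fold thresholds. Without scaling, members with both TiO2-H arrays above both Sham arrays numbered 26 and those below 3. With normexp the differences of Lmx1b and Nkx2-3 turned to -0.015 and -0.090; the cause was not tested. Leaving out each array, chosen after seeing the data, kept the sign of the 8 largest differences without overlap, with Nkx2-2 from -0.77 to -0.017 (lowest in size without Sham female) and Nkx2-3 from 0.10 to 0.40. Normexp also moved Isl2 from -2.38 to -1.50, Nkx6-3 from -0.40 to -0.19, Six4 from 0.31 to 0.12 and Nkx2-6 from -0.19 to -0.29; the cause was not tested.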
